A study of Mus musculus with 20 samples.

Results

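The age difference of the mouse forebrain between 4 and 11 weeks was measured on 10 single-channel oligonucleotide arrays of total RNA, out of 20 arrays in the series. All arrays with the forebrain code in their title were taken, and genotypes were pooled, with genotype as a term of the model. At 4 weeks there were 3 arrays of knock-in mice and 3 of wild-type mice, and at 11 weeks 2 of each. The labels call the later age 11 weeks in the descriptions and 12 weeks in the titles. They name neither the knocked-in allele nor the strain, and both ages contain both genotypes. Each array gave intensities for 22626 probe sets other than array controls, out of 22690. Whether each array holds another mouse is not in the labels, so all p-values rest on a spread that may be partly technical.

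During postnatal life oligodendrocytes wrap the axons of the forebrain in myelin, a membrane rich in galactolipids, cholesterol and a small set of dedicated proteins. Neurons extend and settle their axons over the same period, and blood vessels and the meninges lay down a matrix of collagens. Transcripts of these programmes serve as markers of how far the tissue has matured, and in whole tissue fewer cells of a type and less RNA per cell cannot be told apart.

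The region of 7 of the 10 arrays is contradicted by the opening of their titles and by their source names, which say cerebellum, and the description of 1 of them, knock-in 4 weeks replicate 3, says cerebellum too. The intensities of all 10 differed from those of the cerebellar arrays. Pcp2, a defining gene of cerebellar Purkinje cells, read 50.0 to 579 on these 10 arrays and 38010 to 55244 on the 10 cerebellar arrays. Bcl11b, a transcription factor of cortical and striatal neurons, read 3472 to 6182 against 13.8 to 31.9. Wild-type 4 weeks replicate 1 stood apart on the second principal component (-64.8, against -13.4 to 28.9 on the other 9) and read highest for Ttr, the transthyretin of choroid plexus (25269, against 1086 to 15753). The 4 measured sex-linked genes summed to 20807 on knock-in 11 weeks replicate 1, against 7476 to 11910 on the other 9. Their mean on the log scale did not stand apart there (8.53, against 7.83 to 9.04). Sex was not a term of the model. The first component, with 24.1% of the variance, separated the genotypes, and none of the first 4 separated the ages (smallest p = 0.1, exact permutation within genotype, two-sided). Median intensity was 979 to 1117 at 4 weeks and 989 to 1079 at 11 weeks. The ratio of the 3' to the 5' actin control probe set was 1.16 ± 0.05 at 4 weeks (SD, n = 6) and 1.06 ± 0.09 at 11 weeks (n = 4; exact permutation within genotype, two-sided p = 0.04, adjusted over 9 measures 0.36), and the GAPDH ratio was 0.83 ± 0.05 against 0.81 ± 0.01 (p = 0.52). The part of the actin ratio in the differences below was not tested.

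No probe set passed an adjusted p of 0.05 in limma (0 of 22626, 0%), and the smallest adjusted p was 0.340. Without adjustment, 1732 probe sets had a p under 0.05 (7.65%), of which 1017 read lower (4.49%) and 715 higher (3.16%) at 11 weeks. When each of 12393 genes was represented by its brightest probe set, 572 genes (4.62%) read lower and 375 (3.03%) higher at that unadjusted p. Other settings gave calls. With all 20 arrays in 1 model 9 probe sets passed, all lower (0.0398%), with an intensity-dependent variance 5 (0.0221%), and with dim probe sets left out 7 of 14806 (0.0473%). Gsn and Tspan2 were among them each time, and Col3a1, Marcksl1, Ugt8a, Slc38a5, Mus81 and a dim Npnt probe set under 1 or 2 of these settings. All 11-week arrays lay below all 4-week arrays for 110 genes (0.888%) and above them for 64 genes (0.516%). The differences below are therefore descriptions of genes that did not pass over all probe sets, on the scale log2(intensity + 16), as 11 weeks minus 4 weeks ± standard error.

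Myelin genes read lower at 11 weeks as a group. This list and those below were chosen with earlier results of these data known, so their counts are descriptions and not an independent test. Of 27 measured genes of myelin and oligodendrocytes, 22 had a difference below 0, beside 51.7% of all genes, with a median of -0.36 against -0.01 over all genes. At the unadjusted p, 12 of the 27 read lower, beside 4.62% of all genes, 2 read higher and 13 did neither. For 6 of them no 11-week array reached the lowest 4-week array, beside 0.888% of all genes. The summed intensity of the 27 genes was 219159 to 287628 on the 4-week arrays. It was 184564 and 171855 on the knock-in and 217967 and 189975 on the wild-type arrays at 11 weeks. Those sums did not overlap, although wild-type 11 weeks replicate 1 came close to the lowest 4-week array. The mean of the 27 genes on the log scale of the tests did overlap between the ages. That mean was 11.98 on wild-type 11 weeks replicate 1, above the 11.95 on wild-type 4 weeks replicate 3. Without wild-type 4 weeks replicate 1 the median was -0.33, with 12 lower, and without knock-in 4 weeks replicate 3, whose description says cerebellum, it was -0.38, with 13 lower. It was -0.24, with 11 lower, without knock-in 4 weeks replicate 2, the array with the highest sum, and -0.28, with 10 lower, without knock-in 11 weeks replicate 2.

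The gene with the smallest p among all genes was Gsn, gelsolin, an actin-severing protein abundant in oligodendrocytes. Its intensity was 7511 to 9897 (median 8024) at 4 weeks. At 11 weeks it was 3599 and 3432 in knock-in and 4959.8 and 3661 in wild-type mice. All 4 later arrays lay well below the earlier 6, a difference of -1.12 ± 0.14 (limma adjusted p = 0.340). Another 3 Gsn probe sets gave -1.42 to -0.87, and 2 dim ones 0.01 and -0.30. Of the galactolipid enzymes, Ugt8a, which makes the galactosylceramide of myelin, read 4048 to 7558 (median 4883) at 4 weeks, against 2524 and 2069.8 in knock-in and 3023 and 2305 in wild-type mice at 11 weeks. The ages did not overlap, with a difference of -1.08 ± 0.19 (adjusted p = 0.420), or -0.93 at a second probe set. Fa2h, which hydroxylates the fatty acids of these lipids, read 2895 to 5047 (median 3585) at 4 weeks, then 1788 and 3088 in knock-in and 2569 and 1964 in wild-type mice. Only knock-in 11 weeks replicate 2 reached into the 4-week range of Fa2h, whose difference was -0.69 ± 0.20 (adjusted p = 0.526).

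Among the membrane proteins of the sheath, Tspan2, a tetraspanin of oligodendrocytes, read 7812 to 12018 (median 9468) at 4 weeks and 5013 and 4313 in knock-in and 7129 and 5445 in wild-type mice at 11 weeks. The ages did not overlap at Tspan2, at -0.83 ± 0.17 (adjusted p = 0.439), and its other probe sets gave -0.89 and -0.76. Cldn11, the claudin of the myelin tight junction, read 1752 to 2822 (median 2251) at 4 weeks, and 1437 and 959 in knock-in and 1527 and 1146 in wild-type mice later, again without overlap (-0.80 ± 0.17, adjusted p = 0.439). Mal, a raft proteolipid of compact myelin, read 11623 to 17780.0 (median 13453) at 4 weeks, and 9574 and 8396 in knock-in and 9399.7 and 10171 in wild-type mice at 11 weeks. The 4 later arrays were the lowest for Mal (-0.57 ± 0.14, adjusted p = 0.482, and -0.74 at its second probe set). Mbp, myelin basic protein and the brightest gene of the group, read 52313 to 66267 (median 55755) at 4 weeks against 45546 and 38944 in knock-in and 49631 and 44655 in wild-type mice. Its difference was only -0.36 ± 0.11 (adjusted p = 0.536), without overlap. Its 7 other probe sets spread from -1.31 to -0.03, so the size of the Mbp difference depended on the probe set.

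Cnp, the phosphodiesterase of uncompacted myelin, read 24571 to 37984 (median 30839) at 4 weeks, 17104 and 16243 in knock-in and 26412 and 16316 in wild-type mice at 11 weeks. Wild-type 11 weeks replicate 1 kept a value inside the 4-week range, and the difference was -0.68 ± 0.18 (adjusted p = 0.518), with -0.70 and -0.49 at 2 other probe sets. Mag, a myelin-associated glycoprotein that faces the axon, gave -0.55 ± 0.15, Mobp -0.46 ± 0.18, Pllp, plasmolipin, -0.47 ± 0.17 and the transcription factor Olig1 -0.43 ± 0.10. In these 4 genes at least 1 later array lay within the 4-week range. Mog, a surface glycoprotein of the outermost lamella, did not reach the unadjusted threshold (-0.39 ± 0.19, limma adjusted p = 0.677). Nor did the lineage transcription factors Myrf (-0.28 ± 0.15), Olig2 (-0.29 ± 0.25) and Sox10 (-0.02 ± 0.10), or Aspa (-0.07 ± 0.18) and Car2 (-0.02 ± 0.13), which encode aspartoacylase and carbonic anhydrase. Of the 2 genes that read higher, Apod, a lipocalin of glia, had 5961 to 7377 (median 6791) at 4 weeks and 7369 and 8111 in knock-in and 8327 and 8507 in wild-type mice (0.27 ± 0.09). The other was Hapln2, a link protein of the node of Ranvier (0.55 ± 0.21). The ages overlapped in both genes.

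**Figure D1:**
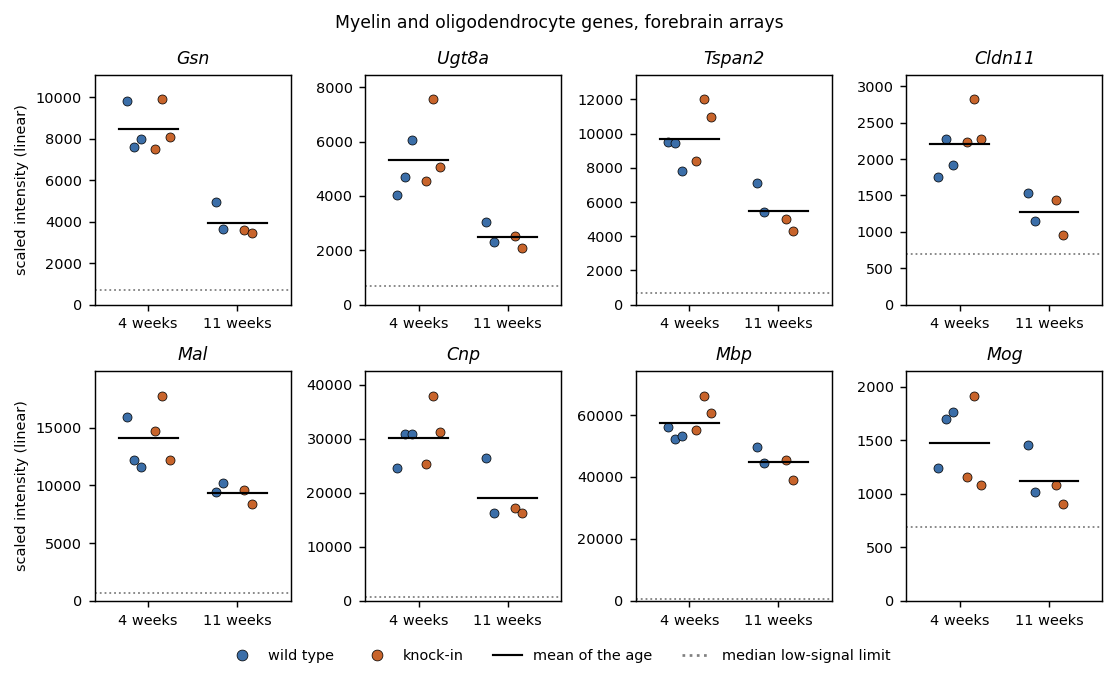
Scaled intensity (linear axis from 0) of 8 myelin and oligodendrocyte genes on the 10 forebrain arrays, by age and genotype, with the mean of each age as a bar and the median low-signal limit of 689 as a dotted line where it falls in range. Gsn, Ugt8a, Tspan2, Cldn11, Mal and Mbp separate the ages completely, while Cnp and Mog overlap.

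In the other stages of the lineage the differences were smaller. Genes of oligodendrocyte precursors and newly formed oligodendrocytes had a median of -0.12 over 12 measured, of which 4 read lower and 0 higher at the unadjusted p (over all genes 4.62% read lower and 3.03% higher). They were Pdgfra, the growth factor receptor of precursors (-0.35 ± 0.12, and 0.00 at another bright probe set), Sox4 (-0.44 ± 0.14), the kinase Fyn (-0.30 ± 0.10) and Nkx2-2 (-0.27 ± 0.12). Every one had overlapping ages at the probe set that represents it. Another Fyn probe set, bright on all 10 arrays, gave -0.31 ± 0.09 without overlap. Without knock-in 4 weeks replicate 1 the median of this list was -0.19.

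Collagens and other matrix genes of vessels and meninges formed the second group that read lower. Of 25 measured, 20 lay below 0 (median -0.28), beside 51.7% of all genes. At the unadjusted p 11 read lower, beside 4.62% of all genes, and 0 higher, and 4 were lower without overlap, beside 0.888% of all genes. Their summed intensity was 54925 to 66830 at 4 weeks, and 51539 and 51841 in knock-in and 46101 and 49847 in wild-type mice at 11 weeks. Of the 34 gene lists examined, this one and the myelin list had sums that did not overlap, both lower at 11 weeks. In 0 lists was the sum higher without overlap. As a mean on the log scale of the tests, the myelin list overlapped between the ages. The matrix list did not, with a lowest mean of 10.40 at 4 weeks and a highest of 10.24 at 11 weeks. Leaving out single arrays gave 7 to 10 lower genes in the matrix list, with 7 without knock-in 4 weeks replicate 3 or knock-in 11 weeks replicate 1.

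The fibrillar collagens had the widest differences. Col1a1, a chain of type I collagen, read 599.7 to 2226 (median 989) at 4 weeks. It read 194 and 241 in knock-in and 297 and 85.7 in wild-type mice at 11 weeks. The fitted difference was -2.41 ± 0.44 (adjusted p = 0.431), but no 11-week array exceeded its low-signal limit, the 40th percentile of its probe sets (689 at the median array). Taken against that limit, Col1a1 was at least 1.57-fold lower, and only 4 of 6 earlier arrays exceeded it. A second, dim probe set gave -0.95. Col3a1, of type III collagen, read 696 to 1469 (median 1059.8) at 4 weeks and 359.5 and 367 in knock-in and 481 and 326 in wild-type mice at 11 weeks. It was at least 1.51-fold lower on the same basis, with a fitted difference of -1.40 ± 0.21 (adjusted p = 0.340), against -0.34 at another, dim probe set. Col1a2, the partner chain of Col1a1, stayed bright, at 2889.6 to 4525 (median 3486) at 4 weeks and 2624 and 2913 in knock-in and 2413 and 2589 in wild-type mice. Only knock-in 11 weeks replicate 2 reached the 4-week range of Col1a2 (-0.44 ± 0.15, adjusted p = 0.583), and a dim probe set gave -1.64.

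The chains of basement membrane collagen, Col4a1 and Col4a2, gave -0.57 ± 0.19 and -0.41 ± 0.16, with overlap. Serpinh1, the chaperone of procollagen, read 1799 to 2652 (median 1937) at 4 weeks and 1645 and 1254 in knock-in and 1073 and 1686 in wild-type mice. The ages were separate (-0.54 ± 0.15, adjusted p = 0.524), although another probe set gave -0.16. Igf2, a growth factor made by meninges and choroid plexus, read 4737 to 5976 (median 5481) at 4 weeks and 4246 and 3928 in knock-in and 3483 and 4485 in wild-type mice (-0.43 ± 0.10, adjusted p = 0.467), also without overlap, and 0.09 at a dim probe set. Fibronectin, Fn1, gave -0.35 ± 0.13 and Sparc, a collagen-binding protein, -0.26 ± 0.11. Of the other genes of the insulin-like growth factor pathway, Igfbp7, a binding protein of vessels, gave -0.65 ± 0.15 and the protease Htra1 -0.28 ± 0.11, both with overlap. The other 2 Igfbp7 probe sets, under the low-signal limit on all 10 arrays, gave 0.75 ± 0.33, in the opposite direction, and -0.02. Igfbp6, another binding protein, read higher (0.41 ± 0.09), and 11 of the 15 measured genes of that pathway did neither.

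Endothelial and pericyte genes had a median of -0.17. At the unadjusted p, 4 of 19 read lower, beside 4.62% of all genes, and 0 higher. Cldn5, the claudin of the blood-brain barrier, was the one without overlap, at 3393 to 4304 (median 3769) at 4 weeks and 2944 and 3352 in knock-in and 2444 and 3077 in wild-type mice (-0.36 ± 0.12, adjusted p = 0.583). The others were Slco1c1, a thyroid hormone transporter of the barrier (-0.43 ± 0.13), Mcam (-0.51 ± 0.17) and the pericyte receptor Pdgfrb (-0.34 ± 0.11). Pdgfrb exceeded the low-signal limit on 1 of 6 arrays at 4 weeks and on 0 of 4 at 11 weeks, so the size of its difference is uncertain. For other cells in the dissected tissue, the summed marker intensities overlapped between the ages. Choroid plexus and ependyma genes summed to 14484 to 39661 on the 4-week and 14059 to 27230 on the 11-week arrays, and blood genes to 2541 to 6873 and 3115 to 4825. Singly, 2 of the 16 choroid plexus and ependyma genes read lower at the unadjusted p, beside 4.62% of all genes, and 0 higher. In that list 1 gene was lower without overlap, beside 0.888% of all genes.

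Genes of immature neurons and axon growth had a median of -0.07 over 28 measured. At the unadjusted p 5 of them read lower and 1 higher, beside 4.62% and 3.03% of all genes, and 4 of the 5 had no overlap, beside 0.888%. The median was -0.03 without wild-type 11 weeks replicate 2. Marcksl1, a regulator of actin in growing neurites, read 12245 to 16796 (median 14257) at 4 weeks. At 11 weeks it had 6334 and 7158 in knock-in and 8335 and 9855 in wild-type mice, below every earlier array. Its difference was -0.88 ± 0.12 (adjusted p = 0.340), and its other 3 probe sets spread from -0.82 to -0.06. Nrep, a neuronal regeneration-related protein, read 8906 to 12922 (median 9680.3) and then 6283 and 6512 in knock-in and 8858 and 7068 in wild-type mice (-0.53 ± 0.11, adjusted p = 0.439). Wild-type 11 weeks replicate 1 lay just below the lowest 4-week array. Dpysl3, a collapsin response mediator of growth cones, had 6499 to 8159 (median 7340.1) at 4 weeks and 6350.1 and 5722 in knock-in and 4363 and 3851 in wild-type mice (-0.56 ± 0.13, adjusted p = 0.439). The wild-type arrays were the lower ones at the later age, and 2 other probe sets gave -0.23 and 0.06. Cd24a, a surface glycoprotein of young neurons, read 824 to 1367 (median 1026) and then 571 and 558 in knock-in and 781 and 646 in wild-type mice (-0.69 ± 0.16, adjusted p = 0.445). Nfib, a transcription factor, read higher (0.44 ± 0.16), although its other 3 probe sets gave 0.02, -0.28 and -0.04. Most other members lay near 0, among them Gap43 (0.05 ± 0.11), Sox11 (-0.05 ± 0.11, under the low-signal limit on all 10 arrays), Stmn2 (-0.04 ± 0.09) and Tubb3 (-0.13 ± 0.11). Dcx gave -0.11 ± 0.13. Its other probe sets gave -0.21, bright on all 10 arrays, and -0.26 and -0.45, above the limit on 8 and 5 arrays, none at an unadjusted p under 0.05.

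**Figure D2:**
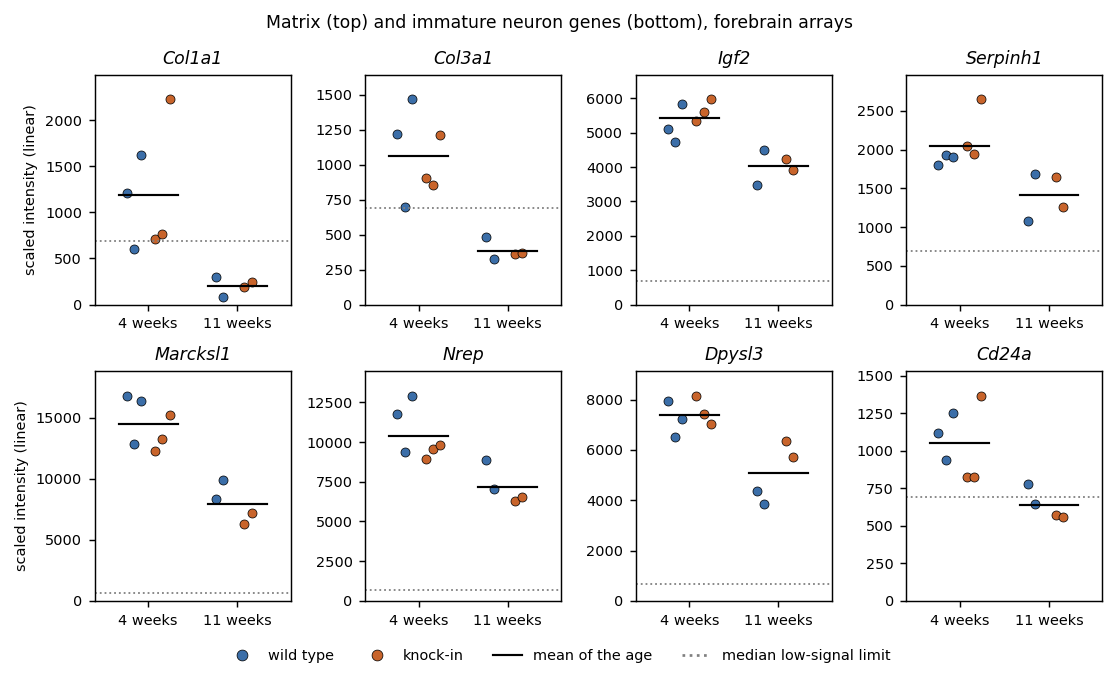
Scaled intensity (linear axis from 0) of 8 genes on the 10 forebrain arrays, by age and genotype. They are the collagens Col1a1 and Col3a1, the growth factor Igf2, the procollagen chaperone Serpinh1 and 4 genes of immature neurons. The mean of each age is a bar and the median low-signal limit a dotted line. All 8 separate the ages, and the 4 later arrays of Col1a1 and Col3a1 lie under the limit of 689.

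Promoters are shown for 4 genes of these groups that read lower together, from RefSeq on GRCm38.p6, as the 250 bases before the annotated start on the gene's own strand. Capitals mark 3 motifs, each searched on both strands, with overlapping matches joined. The GC box was searched as GGGCGG. The sequence CCAAT gave the box of that name, and the TATA box was searched as TATAAA. Of 32851 promoters in the RefSeq table, 32.7% held a GC box, 33.8% CCAAT and 12.4% a TATA box in the same window. Ugt8a (chr3:125938653-125938902, minus strand) held 3 GC boxes, 2 of them overlapping, Marcksl1 (chr4:129513331-129513580, plus strand) a CCAAT box on the other strand, Col3a1 (chr1:45311288-45311537, plus strand) a TATA box 117 bases before the start, and Col1a2 (chr6:4505368-4505617, plus strand) 2 GC boxes and a CCAAT box. No one of the 3 motifs occurred in all 4.
Ugt8a: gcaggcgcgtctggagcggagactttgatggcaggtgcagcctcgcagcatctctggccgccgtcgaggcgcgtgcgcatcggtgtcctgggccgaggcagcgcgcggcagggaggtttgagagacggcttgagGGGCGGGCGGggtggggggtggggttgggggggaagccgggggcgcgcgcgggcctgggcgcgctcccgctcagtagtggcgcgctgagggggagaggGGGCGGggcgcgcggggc
Marcksl1: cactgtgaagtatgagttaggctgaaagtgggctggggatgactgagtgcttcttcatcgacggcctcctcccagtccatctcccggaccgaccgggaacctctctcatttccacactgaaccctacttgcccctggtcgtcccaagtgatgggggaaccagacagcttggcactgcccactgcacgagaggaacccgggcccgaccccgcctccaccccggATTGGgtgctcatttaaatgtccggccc
Col3a1: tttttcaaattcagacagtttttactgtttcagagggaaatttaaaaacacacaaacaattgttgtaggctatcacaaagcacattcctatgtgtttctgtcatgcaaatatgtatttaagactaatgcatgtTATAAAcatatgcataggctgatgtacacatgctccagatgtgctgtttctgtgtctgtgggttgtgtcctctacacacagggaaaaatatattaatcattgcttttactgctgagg
Col1a2: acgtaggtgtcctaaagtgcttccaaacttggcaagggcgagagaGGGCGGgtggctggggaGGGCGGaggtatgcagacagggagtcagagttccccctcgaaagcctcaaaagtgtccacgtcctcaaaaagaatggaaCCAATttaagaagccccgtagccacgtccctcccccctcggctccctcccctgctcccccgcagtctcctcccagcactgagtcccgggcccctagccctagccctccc

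Outside these groups, the genes with the smallest p that read lower were as follows. Slc38a5, an amino acid transporter, read 628 to 844 (median 765) at 4 weeks and 482 and 526 in knock-in and 453 and 411 in wild-type mice, all 4 under the low-signal limit (-0.66 ± 0.09, adjusted p = 0.340, at least 1.11-fold lower). Mus81, a DNA junction endonuclease, read 642 to 1273 (median 1017) and then 563 and 509 in knock-in and 500.0 and 449 in wild-type mice (-0.91 ± 0.15, at least 1.42-fold lower), and its second probe set gave -0.25. Npnt, the matrix protein nephronectin, read 2214 to 4078 (median 2885) at 4 weeks and 1689 and 1662 in knock-in and 1932 and 1690.3 in wild-type mice (-0.80 ± 0.14, adjusted p = 0.423). None of these 3 had overlapping ages. The other 4 Npnt probe sets spread from -1.24 to -0.15. Gamt, which completes creatine synthesis, gave -0.37 ± 0.07 without overlap, and Gp1bb, a platelet glycoprotein subunit, and the small heat shock protein Hspb3 gave -0.68 ± 0.13 and -0.45 ± 0.09 with overlap. A second Gp1bb probe set gave 0.09.

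Among genes that read higher at 11 weeks, Cbx7, a reader of Polycomb chromatin marks, had the smallest p. It read 642 to 1004 (median 783) at 4 weeks and 1549.9 and 1689 in knock-in and 1244 and 1191 in wild-type mice at 11 weeks. The ages did not overlap (0.83 ± 0.15, adjusted p = 0.431), but its second, dim probe set gave -0.09. Il33, an alarmin cytokine, read 459.9 to 1144 (median 884) at 4 weeks and 1935 and 1523 in knock-in and 2007 and 1615 in wild-type mice, with every later array above every earlier one (1.15 ± 0.25, adjusted p = 0.439). Abcg1, a cholesterol exporter, read 2622 to 3205 (median 2969) and then 4063 and 3872 in knock-in and 3567 and 4163 in wild-type mice (0.41 ± 0.09, adjusted p = 0.445). Pdk2, a kinase that restrains pyruvate dehydrogenase, read 3342 to 4085 (median 3573) and then 4601 and 5146 in knock-in and 4739.6 and 4513 in wild-type mice (0.38 ± 0.09, adjusted p = 0.445). Neither gene's ages overlapped.

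Hsf4, a heat shock transcription factor (0.59 ± 0.14), Oard1, which removes ADP-ribose from proteins (0.75 ± 0.17), and Gstz1, an enzyme of tyrosine breakdown (0.68 ± 0.16), also had separate ages, on weaker signals. Slc7a3, a transporter of cationic amino acids (0.46 ± 0.10), and Zcchc18 (0.38 ± 0.08) overlapped. In the list of complement and ageing-related glia, 4 of 14 read higher and 1 lower at the unadjusted p, beside 3.03% and 4.62% of all genes. With Il33 and Apod, the higher ones were the long non-coding RNA Neat1, at 638 to 1119 (median 872) at 4 weeks and 1578 and 1027 in knock-in and 1654 and 1553 in wild-type mice (0.69 ± 0.19), and Serpina3n, an acute-phase protease inhibitor. Serpina3n read 87.5 to 225 (median 179.8) at 4 weeks and 1145 and 447 in knock-in and 104 and 635 in wild-type mice (1.38 ± 0.49), and 1 of the 10 arrays exceeded the low-signal limit. The lower one was Cd68, a lysosomal protein of microglia (-0.36 ± 0.12). Of 24 chaperones, 3 read higher, beside 3.03% of all genes, and 0 lower. Without wild-type 11 weeks replicate 1 the count was 1. The 3 were Hspa1a (0.48 ± 0.21), Hspa1b (0.59 ± 0.20) and the cold-inducible Cirbp (0.36 ± 0.13), all with overlapping ages.

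**Figure D3:**
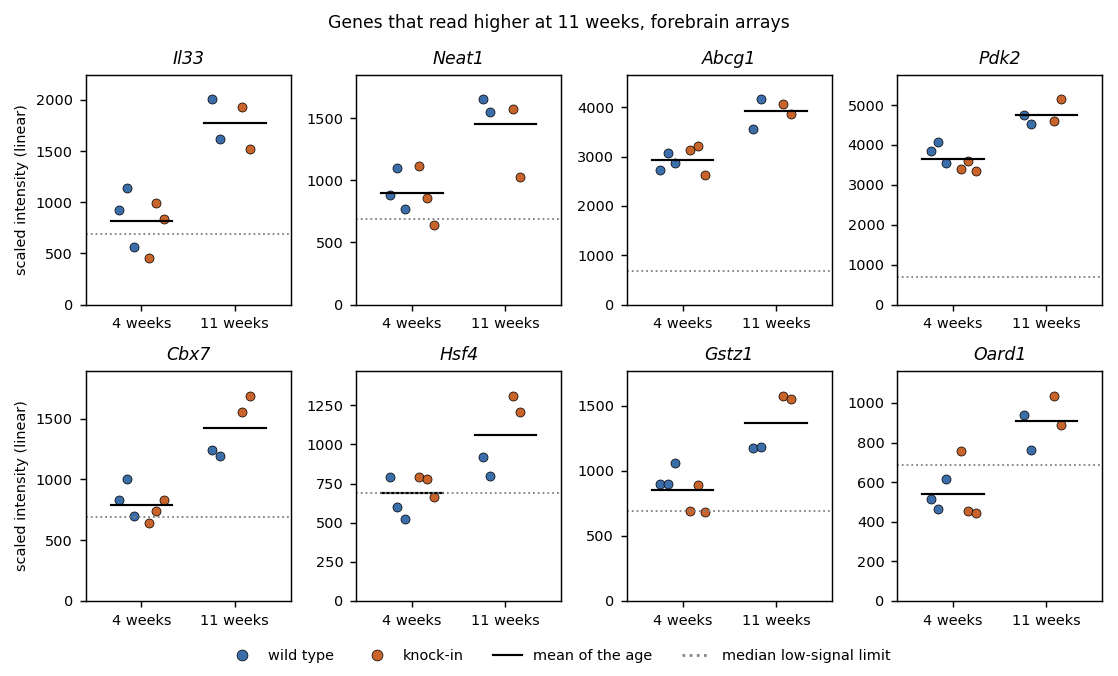
Scaled intensity (linear axis from 0) of 8 genes that read higher at 11 weeks, on the 10 forebrain arrays, by age and genotype, with the mean of each age as a bar and the median low-signal limit of 689 as a dotted line. Neat1 overlaps between the ages, and the other 7 do not.

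Astrocyte genes had a median of -0.17 over 24. At the unadjusted p 3 read lower, 1 higher and 20 neither, beside 4.62% of all genes lower and 3.03% higher. Their summed intensity overlapped between the ages (384463 to 420552 at 4 weeks and 338052 to 395377 at 11 weeks). The median was -0.04 in wild-type and -0.22 in knock-in mice, and over both -0.10 without knock-in 11 weeks replicate 1. Mt1, a metallothionein, had no overlap (-0.28 ± 0.09, and 0.10 at a dim probe set), the water channel Aqp4 (-0.34 ± 0.10) and the connexin Gja1 (-0.29 ± 0.12) overlapped, and S100b, a calcium-binding protein, read higher (0.28 ± 0.11). Of 5 other bright Gja1 probe sets, 1 gave -0.33 and the rest -0.03, -0.03, 0.02 and 0.25. Among microglial genes (median -0.13) 2 of 18 read lower, beside 4.62% of all genes. These were Csf1r (-0.27 ± 0.10), the growth factor receptor of microglia, and Cd68. Both other Csf1r probe sets, bright on all 10 arrays, gave 0.01 and 0.07. Leaving out single arrays gave 0 to 3 lower microglial genes, with 0 without knock-in 11 weeks replicate 1.

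Among neuronal lists, that of perineuronal nets and the extracellular matrix of neurons had a median of -0.10, and 3 of 14 read lower, beside 4.62% of all genes, and 0 higher. They were the proteoglycan Bcan, brevican (-0.36 ± 0.13), the link protein Hapln1 (-0.64 ± 0.26) and the hyaluronan synthase Has3 (-0.54 ± 0.20), all with overlapping ages. Hapln1 exceeded the low-signal limit on 2 of 6 arrays at 4 weeks and 0 of 4 at 11 weeks, and Has3 on 0 of 10. Leaving out single arrays gave 1 to 4, with 1 without wild-type 11 weeks replicate 1. Of 18 genes of ionotropic glutamate receptors (median -0.05) 2 read lower, beside 4.62% of all genes. They were the subunits Gria4 (-0.33 ± 0.14) and Grik5 (-0.24 ± 0.09), with overlap. Single arrays left out gave 0 to 2, with 0 without knock-in 4 weeks replicate 3 or knock-in 11 weeks replicate 2. The neuronal and housekeeping lists named next held 0 to 2 genes each that read lower or higher, beside 4.62% and 3.03% of all genes. Of 39 genes of oxidative phosphorylation, 0 read lower or higher (median -0.02), as did 0 of 19 circadian clock genes (0.02), 0 of 18 interneuron genes (-0.07) and 0 of 12 GABA-A receptor subunits (-0.11). Among 28 immediate early genes Fosb alone read higher (0.40 ± 0.16), beside 3.03% of all genes. Among 19 genes of cortical excitatory neurons it was Nptx1 alone, a pentraxin of excitatory synapses (0.37 ± 0.12). Single genes are about what that share gives in lists of this size. The median of 34 ribosomal protein genes was 0.06, and 1 read lower and 1 higher, beside 4.62% and 3.03% of all genes.

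**Figure D4:**
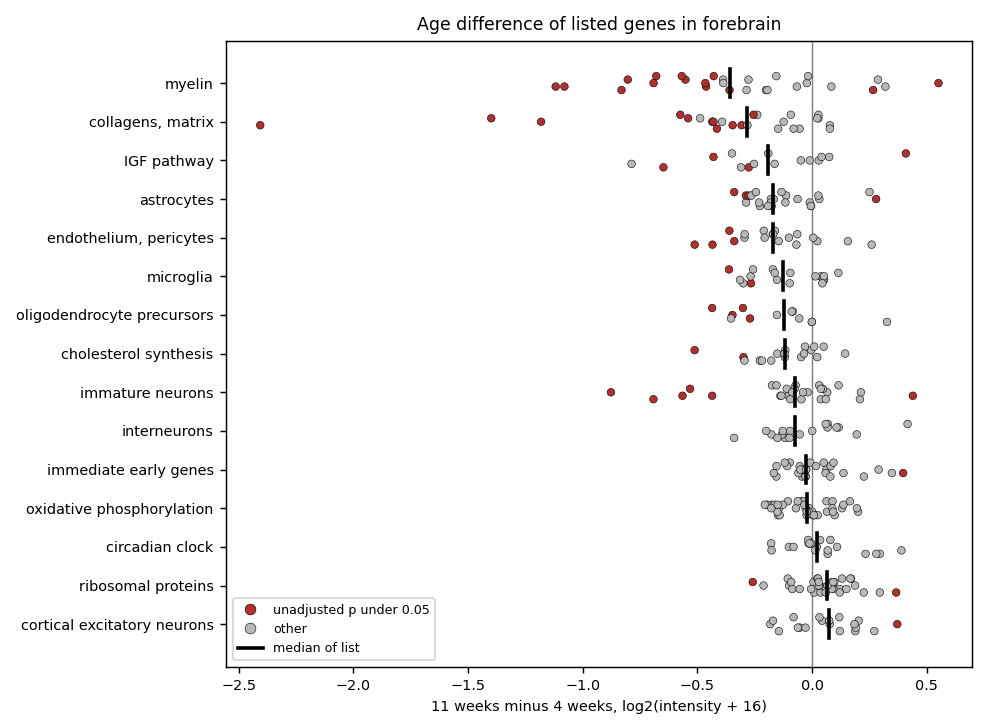
Age difference in forebrain (11 weeks minus 4 weeks, log2(intensity + 16)) of the measured genes of 15 lists, 1 point per gene, with genes at an unadjusted p under 0.05 in red and the median of each list as a black bar. Myelin (-0.36) and matrix genes (-0.28) have the lowest medians, and the single matrix gene at the far left is Col1a1.

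The age difference was also read within each genotype. Alone, wild-type arrays gave 0 of 22626 probe sets past an adjusted p of 0.05 in limma (1009 at an unadjusted p under 0.05) and knock-in arrays 0 (1874). Both genotypes together had given 1732 at the unadjusted p (7.65%). The difference between the genotypes in the age difference passed for 0 of 22626 probe sets (0%; smallest adjusted p = 0.168), and 1190 (5.26%) had an unadjusted p under 0.05. Without knock-in 4 weeks replicate 2, 1 probe set passed that test. Over the same 22626 probe sets, the wild-type count of 1009 lay below the pooled 1732 (7.65%) and the knock-in count of 1874 above it. A share of 0.05 would be expected if no probe set differed, and the wild-type count lay under that share. The median of the myelin list was -0.26 in wild-type and -0.48 in knock-in mice, and the knock-in estimate was the lower one for 26 of 27 genes, beside 6687 of all 12393 genes. Singly, 2 of the 27 had an unadjusted interaction p under 0.05, Car2 (-0.54 ± 0.21, limma adjusted p = 0.928) and the small heat shock protein Cryab (-0.55 ± 0.24, adjusted p = 0.945). Because the 27 estimates share the same 10 arrays, they are not independent. The matrix list had medians of -0.33 and -0.28. Gstz1 gave 0.31 ± 0.15 in wild-type and 1.04 ± 0.15 in knock-in mice (interaction limma adjusted p = 0.844). Dpysl3 gave -0.81 ± 0.14 and -0.32 ± 0.14 (adjusted p = 0.928).

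In cerebellum the same comparison over the other 10 arrays gave 25 probe sets past an adjusted p of 0.05 in limma, 22 lower (0.0972%) and 3 higher (0.0133%). The count depended on single arrays. It was 0 without any one of knock-in 4 weeks replicate 3, wild-type 4 weeks replicates 1 and 3, knock-in 11 weeks replicate 1 and wild-type 11 weeks replicate 2. It was 6 without knock-in 4 weeks replicate 2, 5 without knock-in 11 weeks replicate 2, 1 without wild-type 11 weeks replicate 1 and 38 without wild-type 4 weeks replicate 2. Of the 22 probe sets lower in cerebellum, 19 had a forebrain estimate below 0, beside 51.7% of all genes. In forebrain 17 of them read lower at the unadjusted p, beside 4.49% of all probe sets. Among the 17 were probe sets of Gsn, Ugt8a, Tspan2, Mal, Fa2h, Col1a1, Col3a1, Gamt and Slc38a5. Gsn and Tspan2 each held more than 1 of them, so the 17 are not separate genes. The 2 regions may come from the same mice, which the labels do not say.

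The test of the difference between regions in the age difference passed for 3 of 22626 probe sets (0.0133%), of which Aldh1a1 and Necab3 had a single gene name. Leaving out single arrays gave 1 to 6. It gave 1 without knock-in 4 weeks replicates 2 or 3 or knock-in 11 weeks replicate 1 of either region, or without wild-type 4 weeks replicate 3, knock-in 11 weeks replicate 2 or wild-type 11 weeks replicate 1 of forebrain, and 5 or 6 without wild-type 4 weeks replicate 2 of forebrain or cerebellum. Myelin genes had a median of -0.53 in cerebellum against -0.36 in forebrain, and 4 of 27 reached an unadjusted p under 0.05 in the test of the difference, beside 5.59% of all genes. These were Mog (-0.39 ± 0.19 in forebrain, -1.19 ± 0.19 in cerebellum), Sox10 (-0.02 ± 0.10 and -0.53 ± 0.12), Mal (-0.57 ± 0.14 and -0.997 ± 0.11) and Hapln2 (0.55 ± 0.21 and -0.01 ± 0.10), with limma adjusted p from 0.723 to 0.875. Cholesterol synthesis, which supplies the main lipid of myelin, gave a median of -0.12 in forebrain with 2 of 18 lower, beside 4.62% of all genes. They were Lss (-0.51 ± 0.14, and 0.03 at another probe set above the limit on 9 of 10 arrays) and Dhcr7 (-0.30 ± 0.12). Without wild-type 11 weeks replicate 2 the forebrain median was -0.04 and without knock-in 11 weeks replicate 1 it was -0.07. Single arrays left out gave medians down to -0.16 and 1 to 4 lower genes. In cerebellum the median was -0.43 with 12 of 18 lower, beside 6.75% of all genes. For 8 of the 18 the difference between regions had an unadjusted p under 0.05, beside 5.59% of all genes, and in all 8 forebrain was the less negative or the higher one. Hmgcs1, an early enzyme of the pathway, gave -0.23 ± 0.10 in forebrain and -0.87 ± 0.15 in cerebellum (adjusted p = 0.720 for the difference), and Sqle, squalene epoxidase, -0.29 ± 0.14 and -0.81 ± 0.15 (0.872). None of the 18 passed after adjustment. Choroid plexus genes had medians of 0.01 and 0.56, and 6 of 16 reached the unadjusted p for the difference, beside 5.59% of all genes.

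**Figure D5:**
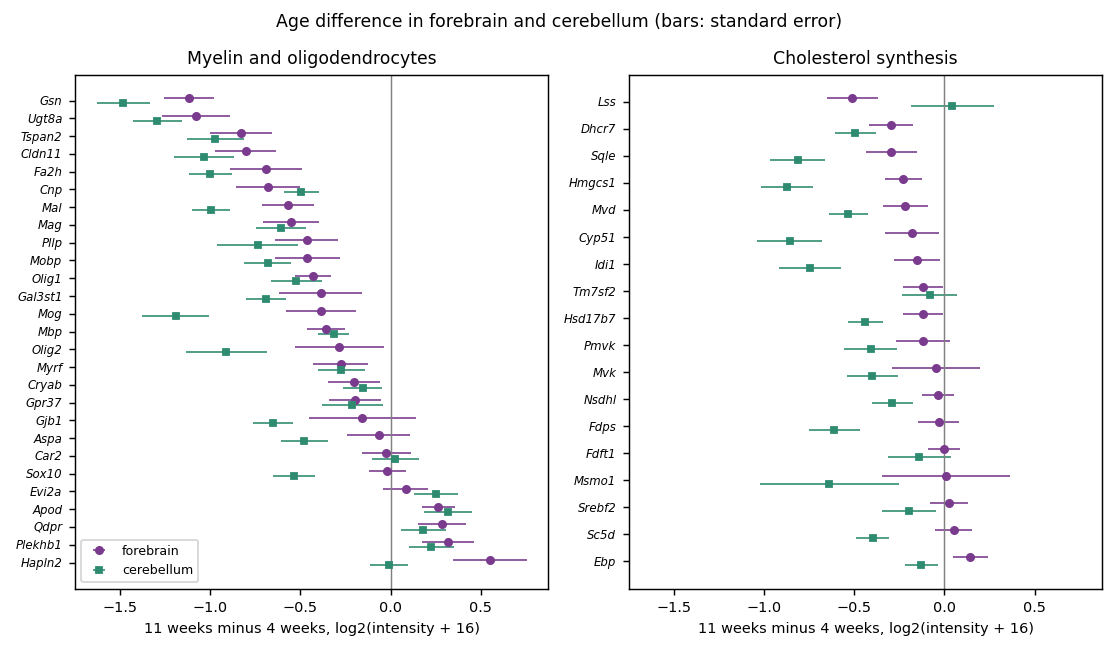
Age difference (11 weeks minus 4 weeks, log2(intensity + 16), bars are standard errors) of 27 myelin and 18 cholesterol synthesis genes in forebrain (10 arrays) and cerebellum (10 arrays). In each region 22 of the 27 myelin genes lie left of 0, while cholesterol genes lie near 0 in forebrain (median -0.12) and further left in cerebellum (median -0.43).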

How the data were processed

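Forebrain RNA was hybridised to arrays whose probe sets carry Affymetrix names, where an s or x before the final part marks probes that can also match other transcripts. The authors deposited 1 intensity per probe set and array, on a linear scale, in the series' value table. Arrays had been scaled to a common level, since their 2% trimmed means lay between 2500.59 and 2500.75. The software is not given in the sources used here, and detection calls were not used. Genes were named from the platform annotation, which lists a single symbol at 20380 probe sets, more than 1 at 691 and no symbol at 1555. The 64 control probe sets were left out.

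Arrays were grouped by the title code. Values were tested as log2(intensity + 16) with limma 3.58.1 in R 4.3.3 (lmFit, eBayes), with age and genotype as terms over the 10 forebrain arrays (7 residual degrees of freedom), and adjusted by Benjamini-Hochberg over 22626 probe sets. This scale understates the change of dim genes. Interactions tested genotype by age and region by age. Quality measures were tested by exact permutation of age within genotype (100 arrangements, smallest two-sided p 0.02). Each gene was represented by its probe set with the highest mean over all 20 arrays. The low-signal limit is each array's 40th percentile, and a bound raises the dimmer values to it. Arrays have no depth, and their number limits the precision.

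Named genes are the 10 with the smallest p in each direction among those above the limit on every array of the brighter age, members of 34 gene lists, and genes called in the region test. The lists and the comparison were chosen with earlier results of these data known. Alternatives were other offsets, normalizations, filters, variance models and samples. The scripts were tested on simulated data. No 2 of the 20 arrays were identical (190 pairs).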

Additional observations from a re-analysis of the deposited data

Results flagged for a closer look

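The age difference of 3 probe sets differed between forebrain and cerebellum in the limma interaction test over all 20 arrays. Aldh1a1, a retinaldehyde dehydrogenase, read 3654 ± 647 at 4 weeks (SD, n = 6) and 2622 ± 397 at 11 weeks (n = 4) in forebrain, and 11036 ± 1036 against 15000.1 ± 911 in cerebellum. Its age difference was -0.47 ± 0.10 in forebrain and 0.45 ± 0.10 in cerebellum, so that forebrain minus cerebellum was -0.92 ± 0.13 (adjusted p = 0.0317). Necab3, a neuronal calcium-binding protein, was level in forebrain at 2400 ± 305 and 2405 ± 215 (0.01 ± 0.12) and read 3808 ± 966 and 1086 ± 226 in cerebellum (-1.77 ± 0.22), a difference of 1.78 ± 0.26 (adjusted p = 0.0317). The remaining probe set, which has no single gene name, gave -0.19 ± 0.09 in forebrain and 0.75 ± 0.08 in cerebellum, a difference of -0.94 ± 0.10 (adjusted p = 0.00200). Their cause was not tested. Groups by genotype and age held 2 or 3 arrays, too few to look for single outlying arrays within a group.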

How the results depend on the processing

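The forebrain count of 0 stayed at 0 under both other offsets, quantile and cyclic loess normalization, 1 probe set per gene, no genotype term, either genotype alone and without each of the 10 arrays. It was 9 with all 20 arrays, 5 with the intensity trend and 7 with the filter on low values. The genotype by age count stayed at 0 under every planned setting except for 0 to 1 without single arrays. The cerebellar count of 25 was 16 with offset 1, 53 with offset 64, 147 with the filter, 15 with quantile and 15 with cyclic loess normalization, 182 with the intensity trend, and 0 to 38 without single arrays. The region count of 3 was 7 with the filter, 6 with the intensity trend and 1 to 6 without single arrays. With the replicate number as a block the counts were 0 in forebrain, 0 for genotype by age, 0 in cerebellum and 0 for the region test (3 with the block as a random effect). Same-numbered forebrain and cerebellum arrays correlated at -0.02 to 0.09 in their deviations from group means (median 0.05, 0 of 10 pairs over 0.1). Differently numbered pairs correlated at -0.07 to 0.08 (median -0.04, 0 of 16 over 0.1). These correlations cannot decide whether same-numbered arrays share a mouse, because deviations from the mean of so few arrays depend on each other. The numbers were not taken to pair the arrays in the main tests. The cause of the changes in the counts was not tested. Of 2010 values for 101 genes under 20 settings (19 for 10 genes that the filter removed), 0 changed sign and 10 passed the threshold. These genes were chosen by their p in the same data, so their kept signs are no independent support. Either genotype alone was not among these 20 settings, but was among the 22 for the list medians. The myelin median ranged from -0.48 to -0.24 over 22 settings and the matrix median from -0.33 to -0.24. Dim signals, near or under the low-signal limit at one or both ages, limit Col1a1, Col3a1, Slc38a5, Mus81, Serpina3n, Pdgfrb, Hapln1, Has3, Ezh2, Prox1 and Lct, among others named as dim.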

Other observations

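Other lists are given by their genes at an unadjusted p under 0.05 in limma, beside 4.62% of all genes lower and 3.03% higher. Of 20 measured genes of thalamus, hypothalamus and pituitary 3 read higher and 1 lower at 11 weeks. The higher ones were Pomc, the precursor of melanocortins (0.41), Oxt, which encodes oxytocin (0.34), and Hap1, a huntingtin-associated protein (0.43), and the lower one was Ramp3 (-0.61). The count of higher genes was 0 without knock-in 11 weeks replicate 2. Of 16 genes of hippocampus and olfactory bulb 4 read lower and 0 higher: Pcp4 (-0.36), Prox1, a transcription factor of dentate granule cells (-0.50), Omp, the olfactory marker protein (-0.43), and Lct (-0.42). Their values overlapped between the ages, Prox1 and Lct lay under the low-signal limit on all 10 arrays, and leaving out single arrays gave 1 to 5 lower genes, with 1 without wild-type 11 weeks replicate 1. Of 14 striatal genes 0 did either, with a median of 0.10. In the list of DNA methylation and chromatin genes, 2 of 14 read lower, the methyltransferases Dnmt3a (-0.30 ± 0.12) and Ezh2 (-0.41 ± 0.16), and both overlapped. Further Dnmt3a probe sets gave -0.54 and -0.29, bright on all 10 arrays. Dimmer ones gave -0.57 and -0.81, above the low-signal limit on 3 and 5 of 10 arrays. Ezh2 exceeded the low-signal limit on 1 of 6 arrays at 4 weeks and 0 of 4 at 11 weeks, and the count was 0 without knock-in 4 weeks replicate 3 or knock-in 11 weeks replicate 1. Of 27 cell division genes 3 read lower, Nusap1 (-0.94), Top2a (-0.52) and Tyms (-0.77), all under the low-signal limit on every forebrain array, and 2 read higher, Mcm4 (0.36) and Mcm6 (0.80), with -0.03 and -0.14 at dim second probe sets. Leaving out single arrays gave 1 to 6 lower cell division genes, with 6 without wild-type 4 weeks replicate 2.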
